A study of Mus musculus with 4 samples.

Results

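The interleukin 6 (IL-6) family was followed here through 10 of the 32285 genes listed in every cell by gene matrix: the ligands Il6, Lif, Osm and Il11, the receptor chains Il6ra, Il6st, Osmr, Lifr and Il11ra1, and the feedback inhibitor Socs3. The genes were taken by name, and each was counted in cells of synovium, the lining tissue of joints, and of lung. TNF+ mice carry a human TNF transgene (the hTNFtg or TNF-Tg line), overexpress the human cytokine, and are known to develop erosive arthritis and disease of the lung vessels. TNF- mice are littermates without the transgene. All mice were female, 4 months old and on a C57BL/6 background, and none of the 4 groups carried a complement gene deletion or a stated treatment. Tissue of 3 to 5 mice per genotype for lung, and of 5 to 10 for synovium, was pooled before capture, so each of the 4 groups is 1 library. The values have no replicate check, no p-value can be given, and an interval below covers counting error only. The human transgene was not in the gene reference and was not measured.

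IL-6 family cytokines share a receptor chain, gp130, encoded by Il6st. IL-6 first binds IL-6 receptor alpha (Il6ra) and IL-11 binds IL-11 receptor alpha (Il11ra1), chains that bring the ligand to gp130. Oncostatin M (Osm) signals in mice mainly through a pair of gp130 with the oncostatin M receptor (Osmr), and leukemia inhibitory factor (Lif) through gp130 with the LIF receptor (Lifr). The receptors activate JAK kinases and STAT3. STAT3 drives Socs3, whose protein blocks gp130 signalling. In arthritic joints fibroblasts are known as a source of IL-6 and macrophages and neutrophils as sources of oncostatin M. Il6ra protein can also be shed from the cell surface, after which IL-6 can act on cells that have gp130 alone, a step that RNA counts do not show.

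In GRCm38 the annotation used here (GENCODE vM21) places Il6 at chr5:30013114-30019981 (+ strand, ENSMUSG00000025746), and Lif and Osm beside each other at chr11:4257557-4272514 (+ strand, ENSMUSG00000034394) and chr11:4236420-4241026 (+ strand, ENSMUSG00000058755). Il11 is at chr7:4772373-4782859 (- strand, ENSMUSG00000004371) and Socs3 at chr11:117966079-117970047 (- strand, ENSMUSG00000053113). Among the receptor chains, Il6ra is at chr3:89864059-89913196 (- strand, ENSMUSG00000027947), Il6st at chr13:112464070-112510086 (+ strand, ENSMUSG00000021756), and Osmr and Lifr lie on the same chromosome at chr15:6813577-6874969 (- strand, ENSMUSG00000022146) and chr15:7090614-7197489 (+ strand, ENSMUSG00000054263). Il11ra1 is at chr4:41699989-41769474 (+ strand, ENSMUSG00000073889) and has near-identical copies, Il11ra2 and Gm13305. Reads shared with a copy cannot be placed, so the Il11ra1 counts are uncertain in that respect. The Il11ra2 rows held 0 UMIs (unique molecular identifiers, each counting 1 captured RNA molecule) in all 4 libraries, and Gm13305 held 5 UMIs in the TNF- synovium and 0 in the others, beside 18122 for Il11ra1 in that library.

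RefSeq start windows (GRCm38.p6, 250 bases before to 50 after the start) were given for 9 of the 10 genes, Osm being the exception, and for 12 windows in all. They were searched on both strands for TTCNNNGAA (STAT), GGANTTTCC (NF-kB) and TGANTCA (AP-1), letters that do not overlap in any window below. TTCNNNGAA was found in the window of 1 member, Socs3, and in 8.30% of all 32851 windows. GGANTTTCC was likewise found for 1 member, Il6, against 1.25% of all windows. TGANTCA was found for 4 of the 9 members, Il6, Lif, Il11 and Osmr, against 7.81% of all windows. A member counts here if any of its windows matched, while the shares are of single windows. Il11 had 2 windows with separate starts, of which the other, chr7:4782808-4783107, minus strand, held no match and is not shown. A match is a run of letters and not a bound site. The windows of the 3 ligand genes whose level was higher in TNF+ synovial mesenchyme, and of Socs3, which was lower there, are shown because those genes are described most closely below. Capitals mark the matched letters, and each run reads 5′ to 3′ on the strand of the gene.
Il6, chr5:30012864-30013163, plus strand, NF-kB match starting at -43 and AP-1 match at -249: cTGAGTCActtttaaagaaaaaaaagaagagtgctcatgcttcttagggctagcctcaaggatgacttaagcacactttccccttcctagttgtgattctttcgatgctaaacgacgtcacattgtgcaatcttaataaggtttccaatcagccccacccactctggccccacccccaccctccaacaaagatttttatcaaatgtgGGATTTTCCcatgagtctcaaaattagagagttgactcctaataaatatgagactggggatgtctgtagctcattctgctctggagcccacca
Lif, chr11:4257318-4257617, plus strand, AP-1 match at -228: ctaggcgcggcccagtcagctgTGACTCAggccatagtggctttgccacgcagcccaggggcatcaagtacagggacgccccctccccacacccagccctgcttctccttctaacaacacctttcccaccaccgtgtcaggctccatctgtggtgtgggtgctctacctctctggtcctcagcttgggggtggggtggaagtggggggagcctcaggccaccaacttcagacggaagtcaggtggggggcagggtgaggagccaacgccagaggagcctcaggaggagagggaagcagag
Il11, chr7:4778092-4778391, minus strand, AP-1 match at -98: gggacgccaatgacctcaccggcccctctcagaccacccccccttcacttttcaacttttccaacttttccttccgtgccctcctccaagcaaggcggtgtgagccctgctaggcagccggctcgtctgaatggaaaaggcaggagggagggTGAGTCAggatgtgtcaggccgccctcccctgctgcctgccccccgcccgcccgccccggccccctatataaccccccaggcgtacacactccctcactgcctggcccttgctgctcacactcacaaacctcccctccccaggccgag
Socs3, chr11:117969317-117969616, minus strand, STAT match at -154: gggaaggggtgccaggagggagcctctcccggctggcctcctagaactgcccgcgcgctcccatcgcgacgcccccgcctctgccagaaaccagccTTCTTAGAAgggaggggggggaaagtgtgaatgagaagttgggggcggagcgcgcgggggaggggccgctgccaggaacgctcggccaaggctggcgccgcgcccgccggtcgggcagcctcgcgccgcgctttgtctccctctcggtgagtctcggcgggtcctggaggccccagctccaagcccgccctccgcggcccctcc

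Each library kept between 3152 and 9174 cells, with 7137 to 12492 median UMIs per cell, and 3 to 16 kept cell barcodes were shared between any pair of libraries. Clusters were named from marker genes, and a name stands for cells like that type. The libraries differed in what they held. Mesenchyme (fibroblasts and mural cells) accounted for 3216 of 6200 TNF- and 447 of 3152 TNF+ synovial cells, and myeloid cells 626 and 1228. In lung, myeloid cells were 965 of 6998 in TNF- and 4878 of 9174 in TNF+, and endothelium 2285 and 411. The TNF+ synovium library also held 179 epithelium-named cells, led by Krt18, Krt8, Cldn4 and Epcam in 1 cluster and by Krt14 and Krt5 in the other, against 3 in TNF-, although the label names synovium only. Median depth in lung endothelium was 5579 UMIs in TNF- and 766 in TNF+, and in lung mesenchyme 6462 and 789, so the TNF+ values of these classes rest on few molecules per cell. More than 20% mitochondrial UMIs led to the removal of 17.6% of TNF+ synovial barcodes, against 3.78% in TNF- synovium.

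Levels are given as UMIs of the gene per 1000000 UMIs of the class (CPM), with an exact 95% Poisson interval in parentheses. Osmr and Il11ra1 were lower in myeloid cells than in mesenchyme: in TNF- synovium Osmr stood at 320.3 CPM (302 to 339.8) in endothelium and 174 CPM (169.8 to 177) in mesenchyme against 6.44 CPM (4.97 to 8.21) in myeloid cells, and Il11ra1 at 314 CPM (309 to 319) in mesenchyme against 14.8 CPM (12.5 to 17.3) in myeloid cells. Il6ra stood at 338 CPM (326 to 351) in TNF- lung myeloid cells against 7.82 CPM (6.42 to 9.43) in lung endothelium. Il6st was found in every class, from 45 CPM in lymphocytes to 394 CPM in Schwann cells of the TNF- synovium. Lifr was highest in endothelium among the classes of both TNF- libraries, at 196 CPM in synovium and 267 CPM in lung. The UMIs come from 3′ tags, and a gene is compared here across classes and not with another gene.

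**Figure D1:**
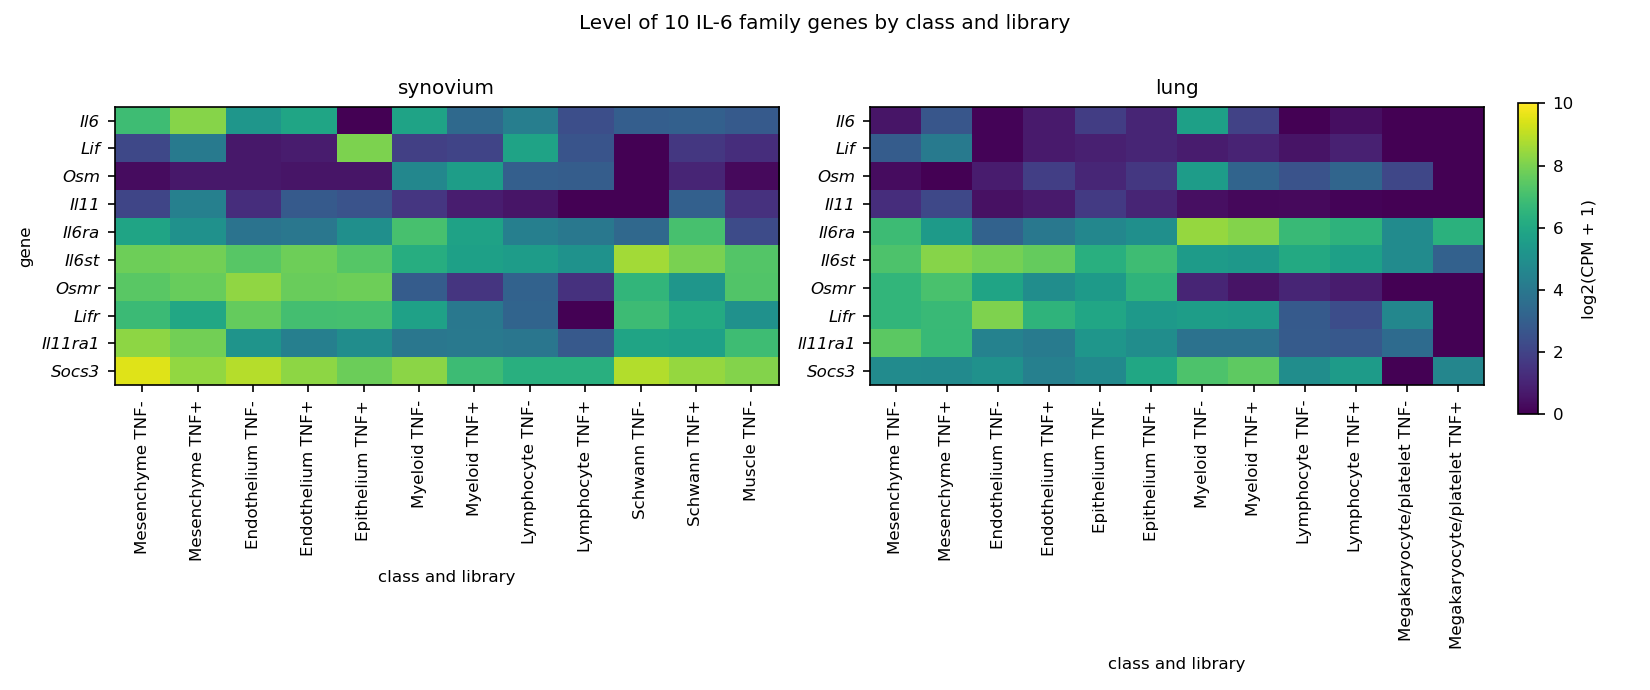
Colour gives log2(CPM + 1) of the 10 genes (rows) in each class with at least 50 cells in a library (columns), synovium on the left and lung on the right, TNF- and TNF+ side by side. Osmr is dark in myeloid and lymphocyte columns of both tissues, Il6ra is brightest in lung myeloid columns, and Lif is bright in TNF+ synovial epithelium at 260.4 CPM.

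The share of a gene's UMIs held by each class joins level and cell number. In TNF- synovium mesenchyme held 81.7% (80.8 to 82.6) of Il6 UMIs, 76.0% of Osmr, 82.4% of Il11ra1 and 76.1% of Socs3. In TNF+ synovium, where mesenchyme was 14.2% of cells, it still held 70.3% (68.3 to 72.2) of Il6 UMIs but 36.5% of Osmr and 26.0% of Socs3. Osm was held by myeloid cells, with 84.0% (79.2 to 88.1) of its UMIs there in TNF- synovium and 98.1% (96.8 to 98.9) in TNF+. In lung, endothelium held 76.6% of Lifr and 58.1% of Osmr UMIs in TNF- and 5.73% and 17.5% in TNF+.

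**Figure D2:**
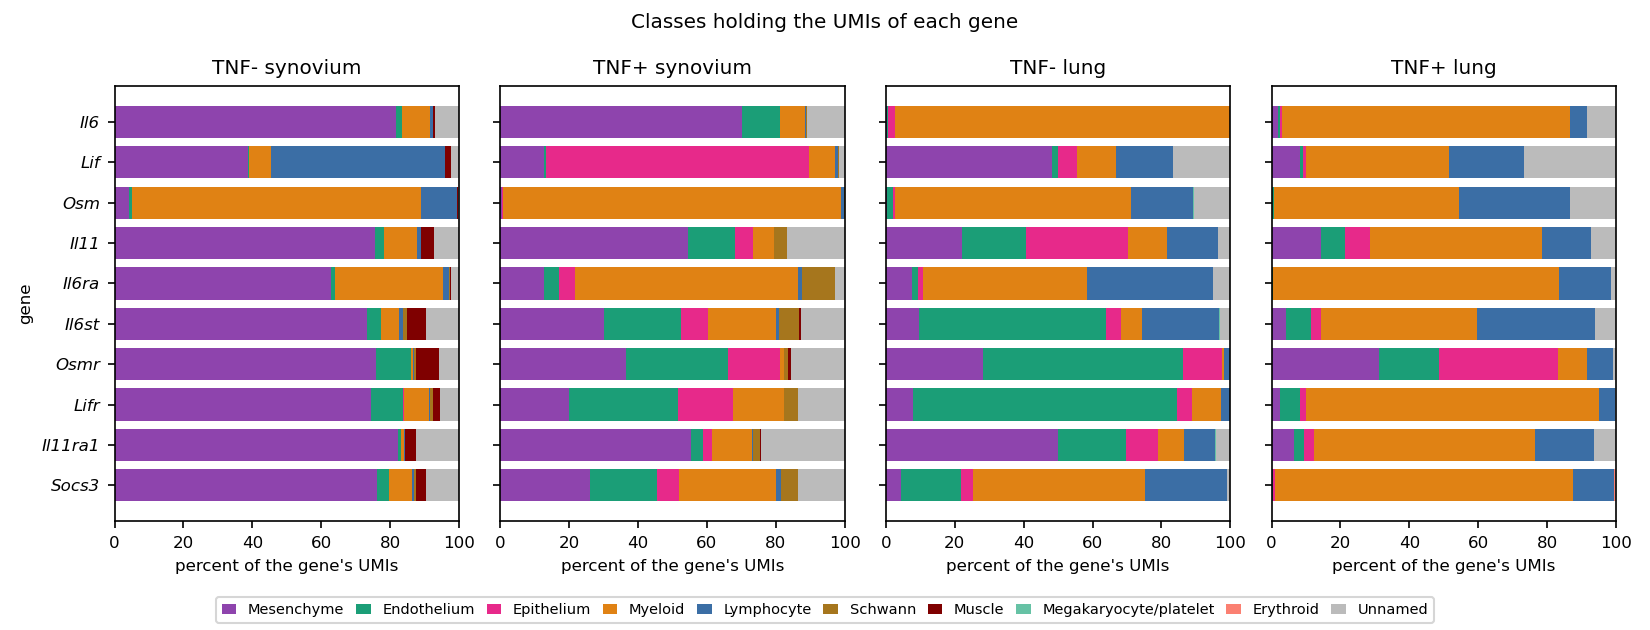
Each bar divides the UMIs of 1 gene (percent, x axis) among the classes of 1 library (colours), with 1 panel per library. Mesenchyme holds 81.7% of Il6 in TNF- synovium and 70.3% in TNF+, epithelium holds 76.4% of Lif in TNF+ synovium, and myeloid cells hold 97.1% of Il6 in TNF- lung.

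The first comparison asked how the family differed between TNF+ and TNF- tissue as a whole, counting a gene as higher or lower at 2-fold or more with at least 20 UMIs over both libraries. In synovium Lif, Osm and Il11 were higher (3 of 10 members, against 11.8% of all genes counted the same way), and Il11ra1 and Socs3 were lower (2 of 10, against 21.9%). In lung Socs3 was higher (1 of 10, against 5.79% of all genes), and Il6, Il11, Il6st, Osmr, Lifr and Il11ra1 were lower (6 of 10, against 25.5%). The median log2 ratio over all genes was -0.17 in synovium and -0.32 in lung, and over the members -0.51 and -1.29. Osm had the largest of the synovial ratios: 3.70 CPM (3.28 to 4.16) in TNF- and 23.6 CPM (21.9 to 25.3) in TNF+, a log2 ratio of 2.67 (2.47 to 2.87) with its 95% conditional binomial interval. Il6 itself was not higher in whole TNF+ synovium, at 91.1 CPM (88.9 to 93.2) in TNF- and 66.5 CPM (63.8 to 69.4) in TNF+. In lung Osmr had the largest ratio, at 25.0 CPM (23.6 to 26.3) in TNF- and 2.97 CPM (2.62 to 3.37) in TNF+, a log2 ratio of -3.07 (-3.27 to -2.87).

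To hold the mix of classes equal, each class with at least 50 cells in both libraries was given the same weight in each. With these weights the synovial log2 ratio of Il6 was 0.78 in place of -0.45, that of Osm 0.94 in place of 2.67, and that of Il11ra1 -0.50 in place of -1.80. In lung the ratio of Osmr was -0.06 in place of -3.07, that of Il6st -0.17 in place of -1.28, and that of Socs3 0.32 in place of 1.31. Not every ratio moved toward 0. The values were, in synovium, Lifr -0.82 in place of -0.89, Il11 2.06 in place of 1.10 and Socs3 -1.10 in place of -1.54, and in lung Il6 -3.45 in place of -2.08 and Osm -1.40 in place of -0.28. The same weights left 1 member higher (Il11) and 1 lower (Socs3) in synovium, and 0 higher and 2 lower (Il6 and Osm) in lung. The mix of cell types inside a class was not held equal. Of lung myeloid cells, neutrophils were 303 of 965 in TNF- and 179 of 4878 in TNF+, and basophil-named cells 20 and 8. The comparisons that follow are made within classes.

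**Figure D3:**
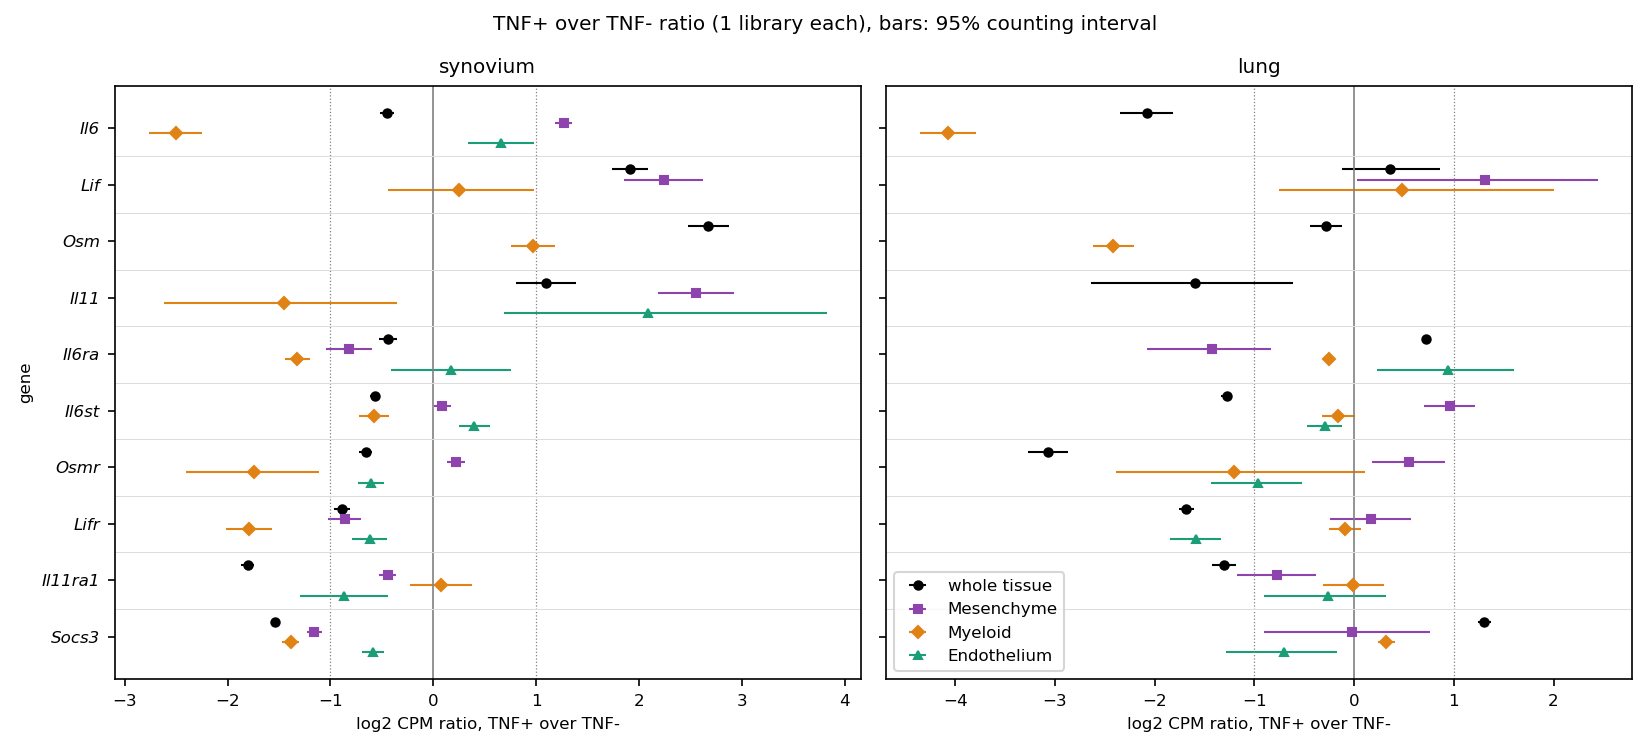
Points give the log2 CPM ratio of TNF+ over TNF- (x axis, 1 library each) for each gene (rows) with at least 20 UMIs in the whole tissue and 3 classes, and bars the 95% counting interval. Dotted lines mark 2-fold. Il6 in synovium lies at 1.27 in mesenchyme and -2.50 in myeloid cells, and Socs3 is below 0 in all 4 synovial groups drawn.

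Within synovial mesenchyme the ligands Il6, Lif and Il11 were higher in TNF+ (3 of 9 members with enough UMIs, against 9.56% of all genes) and Socs3 was lower (1 of 9, against 22%). Il6 stood at 119 CPM (116 to 122) in the TNF- library and 286 CPM (272 to 301) in the TNF+ library, a log2 ratio of 1.27 (1.18 to 1.35). TNF+ was the higher of the 2 libraries in each of the 5 mesenchymal clusters that held at least 20 cells of both. Their TNF+ side was small: 51 cells in cluster 0, 68 in cluster 1, 20 in cluster 3, 43 in cluster 10 and 88 in cluster 18. Over the whole libraries, 50% of Il6 UMIs lay in 44 of the 384 TNF+ synovial cells with one, and in 124 of 1232 in TNF-. Il6 was 45.6 CPM in TNF- against 229 CPM in TNF+ in fibroblast cluster 0, led by Cxcl14 and Smoc2. It was 201 CPM in TNF- against 454 CPM in TNF+ in fibroblast cluster 1, led by Gdf10 and C4b, and 143 CPM in TNF- against 354 CPM in TNF+ in fibroblast cluster 3. Mural cells, which wrap small vessels, had 135 CPM in TNF- against 665 CPM in TNF+ in cluster 10 and 129 CPM in TNF- against 410.0 CPM in TNF+ in cluster 18. The clusters were not filled alike: 177 of the 447 TNF+ mesenchymal cells lay in a fibroblast cluster led by Saa3, Cxcl5 and Mmp13 that held 1 TNF- cell, and its Il6 level was 211 CPM (196 to 227). Genes of other cells were higher in TNF+ mesenchyme too, 4 of 5 endothelial genes with a median log2 ratio of 2.12 and 4 of 6 myeloid genes with 1.92. In the TNF+ library Il6 itself was lower in endothelium, at 57.9 CPM, and in myeloid cells, at 9.57 CPM, than in mesenchyme. The part of those genes' RNA in the mesenchymal ratios was not tested. The share of mesenchymal cells with an Il6 UMI, after thinning each cell to 1000 UMIs, was 7.10% (6.24 to 8.05) in TNF-, over 3196 cells, and 18.2% (14.7 to 22.2) in TNF+, over 434. Unthinned shares were 28.8% and 43.6%, at median depths of 15234 and 9621 UMIs. As a measure of the background, 0.628% (0.130 to 1.82) of 478 thinned muscle cells of the TNF- library had an Il6 UMI at a median depth of 9187 UMIs. In TNF+ synovial epithelium, at 9725 UMIs, 0 of 177 thinned cells had an Il6 UMI, which, at 3 counts of that total, allows a share of cells with a UMI of up to 1.69%.

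Synovial myeloid cells had the opposite order, with 0 members higher in TNF+ (against 9.31% of all genes) and 6 of 10 lower (against 20%): Il6, Il11, Il6ra, Osmr, Lifr and Socs3. Il6 was 54.3 CPM (49.8 to 59.0) in TNF- and 9.57 CPM (8.14 to 11.2) in TNF+, a log2 ratio of -2.50 (-2.77 to -2.25). The TNF- library was higher in macrophages or monocytes (58.3 against 8.72 CPM) and in dendritic cells (54.0 against 20.2 CPM). Free RNA from mesenchyme can place UMIs in other cells. In TNF- myeloid cells 5 collagen and proteoglycan genes of mesenchyme were found at 1.49% of their UMIs per cell in mesenchyme (range over genes 1.03% to 1.80%), against 49.6% for Il6. In TNF+ myeloid cells the same quotients were 0.357% and 3.74%. In both libraries Il6 was above the range of those genes, which in TNF+ was 0.309% to 0.441%. For Osmr the quotients were 4.04% in TNF- and 1.07% in TNF+. The part of free RNA in these values was not tested. Il11 rested on 20 and 12 UMIs and Osmr on 65 and 32. With the mean of each cell's CPM in place of summed UMIs, the Osmr ratio turned to 0.35 and 3 members were lower.

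Synovial endothelium had 1 of 8 members higher, Il11 at 1.46 CPM in TNF- against 6.19 CPM in TNF+ on 5 and 26 UMIs, against 6.78% of all genes, and 0 lower, against 10.4%. Its Il6 was 36.7 CPM (30.6 to 43.7) in TNF- and 57.9 CPM (50.8 to 65.6) in TNF+, with 17.4 CPM in TNF- against 80.0 CPM in TNF+ in endothelial cluster 13, which the arterial genes Gja5, Gja4 and Sema3g led. In synovial lymphocytes 0 of 9 members were higher (against 7.84%) and 5 lower (against 12.9%): Il6, Lif, Osmr, Lifr and Il11ra1, with 31, 33 and 57 TNF- UMIs for the 3 receptor chains. Without the highest doublet scores the Il11ra1 ratio there was 0.05 in place of -1.26.

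**Figure D4:**
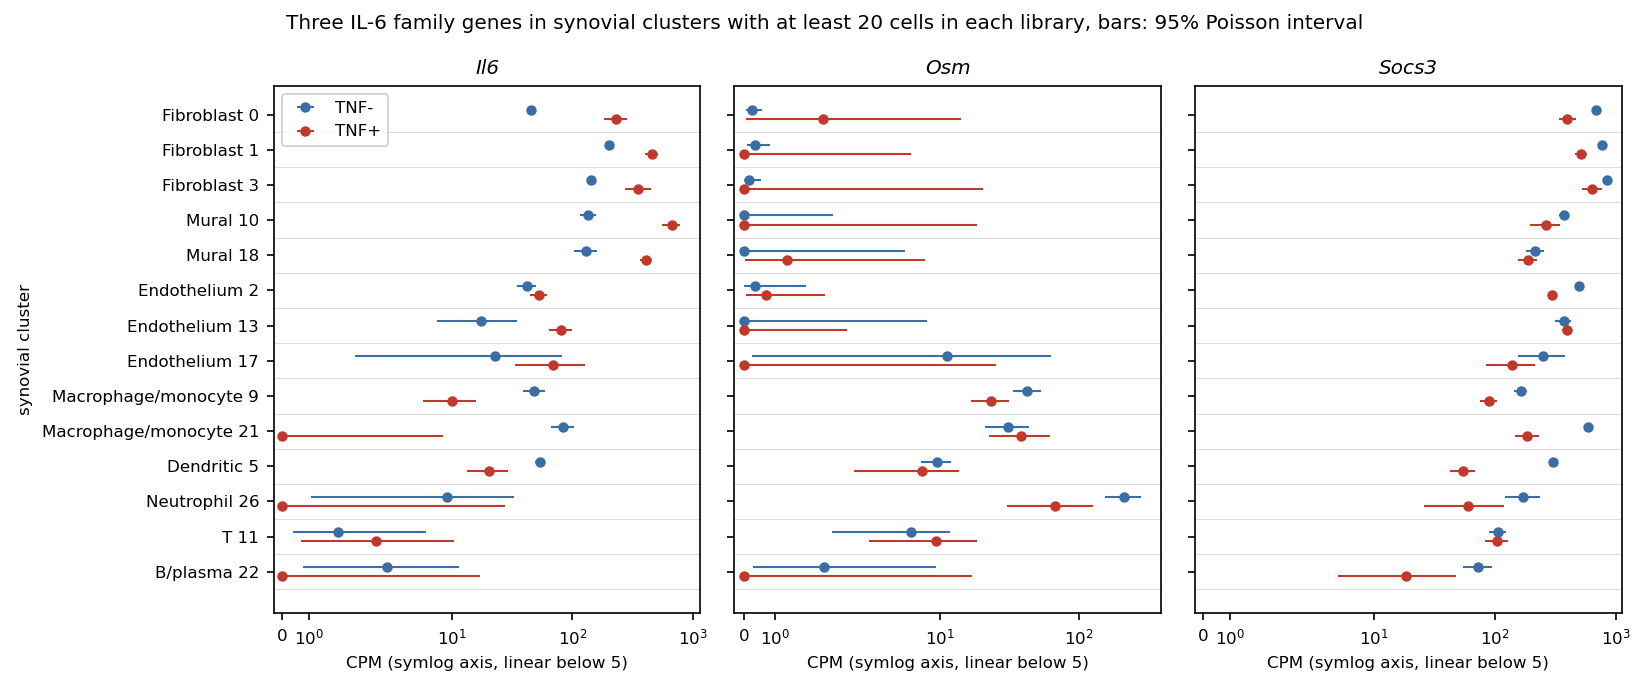
Level (CPM, symlog x axis, linear below 5) of Il6, Osm and Socs3 in the named synovial clusters with at least 20 cells in each library (rows), TNF- in blue and TNF+ in red, bars giving the 95% Poisson interval. Il6 is higher in TNF+ in all 5 fibroblast and mural clusters and lower in TNF+ in the macrophage/monocyte and dendritic clusters, Osm is near 0 in mesenchyme, and Socs3 is lower in TNF+ in all 5 mesenchymal clusters.

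In lung Il6 was held by a few cells. The TNF- library had 445 Il6 UMIs in 33 of 6998 cells, and 5 cells held 50% of them. A cluster of 20 TNF- cells named mast cell or basophil, with Il6, Cd200r3, Ms4a2, Fcer1a, Il4 and Mcpt8 among its top 10 genes, held 365 of them. In those cells Il6 ranged from 0 to 70 UMIs with a median of 13, and 17 of 20 had at least 1, a level of 2982 CPM (2684 to 3304). Mcpt8, a basophil protease, had 68 UMIs there, while the connective tissue mast cell proteases Cma1 and Mcpt4 had 0 and 0. The TNF+ library had 8 such cells with 92 of its 165 Il6 UMIs, 55 of them in 1 cell, a level of 1355 CPM (1092 to 1662). The 60 Il6 UMIs listed for TNF- lung neutrophils all lay in 1 cell, which also carried 33 UMIs of Mcpt8, 13 of Cd200r3 and 475 of the neutrophil gene S100a8. The other neutrophils of that library had 0.

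The lung ratio of Il6 turned on these cells. Il6 was 49.9 CPM (45.3 to 54.9) in TNF- and 2.98 CPM (2.50 to 3.52) in TNF+ myeloid cells, a log2 ratio of -4.07 (-4.36 to -3.79), and 8.27 CPM (7.52 to 9.08) and 1.96 CPM (1.67 to 2.28) in the whole tissue. Without the mast cell or basophil cluster the ratios were -2.98 and -0.78. Without the cells with the highest doublet scores, which took out all 20 TNF- and 7 of 8 TNF+ cells of the cluster and the neutrophil-named cell, they were 0.05 and 1.25. Markers of other cells were counted in them. In the 20 TNF- cells Pecam1, of endothelium and some leukocytes, was found in 16 cells with 30 UMIs, C1qa, of macrophages, in 1, and Cd3e, of T cells, and S100a8 in 0 and 0. In the 8 TNF+ cells Pecam1 was found in 6 with 31 UMIs, C1qa in 4, Cd3e and S100a8 in 1 each, and Cma1 in 1 cell with 8 UMIs. The part of doublets in these Il6 values was not tested. Lung macrophages or monocytes had 3 Il6 UMIs in 551 TNF- cells and 41 in 4445 TNF+ cells. Lung fibroblasts had 2 and 3, against 5417 and 1124 in synovial fibroblasts.

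Osm was mainly a myeloid transcript in synovium. Neutrophils had the highest level there, 212 CPM (156 to 282) in 27 TNF- cells and 67.3 CPM (30.8 to 128) in 24 TNF+ cells. Macrophages or monocytes followed, at 42.0 CPM (35.0 to 50.1) in 230 TNF- cells and 49.2 CPM (45.7 to 52.9) in 1118 TNF+ cells, with dendritic cells at 9.53 and 7.46 CPM. The myeloid class as a whole had 23.5 CPM (20.6 to 26.7) in TNF- and 46.0 CPM (42.8 to 49.4) in TNF+, a log2 ratio of 0.97 (0.76 to 1.19), while that of macrophages or monocytes was 0.23 (-0.05 to 0.51) and that of neutrophils -1.66 (-2.87 to -0.61). Dendritic cells were 369 of 626 myeloid cells in TNF- and 86 of 1228 in TNF+. A macrophage cluster stood apart: cluster 4, led by Cxcl2, Lyz1, Trem2 and Spp1, with 7 TNF- and 734 TNF+ cells, had 55.5 CPM (51.4 to 59.8) in TNF+, while cluster 9, led by Treml4 and Cd300e, had 42.9 CPM in TNF- against 23.3 CPM in TNF+.

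Lung neutrophils had 192 CPM (170.5 to 215) in 303 TNF- cells and 174 CPM (152 to 199.5) in 179 TNF+ cells, a log2 ratio of -0.14 (-0.40 to 0.12). The mast cell or basophil cluster had 425 CPM in TNF- against 162 CPM in TNF+, on 52 and 11 UMIs. Osm in the lung myeloid class was 45 CPM (40.6 to 49.7) and 8.43 CPM (7.62 to 9.31), a log2 ratio of -2.41 (-2.62 to -2.21), in a class where neutrophils were 303 of 965 cells in TNF- and 179 of 4878 in TNF+. Lung macrophages or monocytes had 7.89 CPM in TNF- against 3.95 CPM in TNF+. Lymphocytes held 32.4% of Osm UMIs in TNF+ lung at 8.64 CPM (7.58 to 9.82), against 4.94 CPM (4.03 to 5.99) in TNF-, with 13 CPM in TNF- against 26.0 CPM in TNF+ in NK or innate lymphoid cells. Per cell, TNF+ lung lymphocytes had 96.0% of the Osm UMIs of myeloid cells, and the 310 unnamed cells had 390%. In TNF- lung these quotients were 10.4% and 94.2%, so Osm was not mainly myeloid by level in TNF+ lung.

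Lif and Il11 were rare. Lif had 429 UMIs in TNF- and 700 in TNF+ synovium, and their holders differed. In TNF- 212 of them lay in cluster 16, 141 cells named T but led by Il5, Csf2, Il13 and Gata3, genes known from type 2 helper T and innate lymphoid cells. The TNF+ library held 19 cells of that cluster. In TNF+ 535 of the Lif UMIs lay in the epithelium-named cells, at 260.4 CPM (239 to 283). Without those cells the whole-tissue log2 ratio of Lif was -0.08 in place of 1.91. Few cells carried much of the Lif. Of the 131 TNF+ synovial cells with a Lif UMI, 10 held 50% of the UMIs, and the highest held 74. In TNF- synovium 37 of 234 such cells held 50%, and the highest held 24. Within mesenchyme Lif was 3.48 CPM (2.97 to 4.06) in TNF- and 16.5 CPM (13.2 to 20.3) in TNF+, and Il11 3.27 CPM (2.78 to 3.83) and 19.3 CPM (15.7 to 23.4), both past 2-fold. The Il11 of TNF+ mesenchyme lay in mural cells, with 2 UMIs in TNF- and 36 in TNF+, and in fibroblasts, with 3.37 CPM in TNF- against 15.1 CPM in TNF+. Il11 was 3.44 CPM in TNF- against 5.14 CPM in TNF+ in fibroblast cluster 0 and 3.89 CPM in TNF- against 3.39 CPM in TNF+ in fibroblast cluster 1, and 64 of the 68 TNF+ fibroblast UMIs lay in cluster 15. Over the whole TNF+ synovium library, 14 of the 92 cells with an Il11 UMI held 50% of the UMIs, and the highest held 17. In TNF- synovium 72 of 175 such cells held 50%, and the highest held 4. In lung Lif had 54 and 109 UMIs and Il11 27 and 14, so their levels within lung classes rest on few UMIs.

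Il6ra, the chain that lets a cell bind IL-6 directly, was lower in TNF+ synovial myeloid cells, at 134 CPM (127 to 141) in TNF- and 53.6 CPM (50.1 to 57.2) in TNF+, a log2 ratio of -1.32 (-1.44 to -1.20). The macrophage clusters differed: cluster 9 had 215 CPM in TNF- against 167 CPM in TNF+, whereas cluster 4, which held 734 of the 1228 TNF+ myeloid cells and 7 TNF- cells, had 39.6 CPM (36.1 to 43.3). Schwann cells, which ensheathe nerve fibres, showed the opposite order on few cells, with 4 UMIs in 68 TNF- cells and 130 in 234 TNF+ cells. Of the TNF+ cells, 215 were of cluster 12, which held 15 TNF- cells. In synovial mesenchyme Il6ra was 56.7 CPM in TNF- against 32.2 CPM in TNF+, but in fibroblast clusters 0 and 1 it was higher in TNF+ (46.6 against 74.6, and 30.8 against 52.5 CPM). In lung myeloid cells Il6ra differed little, at 338 CPM (326 to 351) and 283 CPM (278 to 288), and in whole lung it was 114 CPM in TNF- against 188 CPM in TNF+. Lung T cells had 189 CPM in TNF- against 131 CPM in TNF+, B or plasma cells 49.5 CPM in TNF- against 43.4 CPM in TNF+.

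Il6st, the shared gp130 chain, differed by less than 2-fold within the main synovial classes, with 222 CPM in TNF- against 236 CPM in TNF+ in mesenchyme, 169 CPM in TNF- against 223 CPM in TNF+ in endothelium and 74.8 CPM in TNF- against 50.1 CPM in TNF+ in myeloid cells. In lung mesenchyme it was 147 CPM (136 to 159.8) in TNF- and 287 CPM (245 to 335) in TNF+, just under 2-fold, with 87.4 CPM in TNF- against 246 CPM in TNF+ in lung fibroblast cluster 15. Osmr, the oncostatin M chain, was 174 CPM (169.8 to 177) and 202 CPM (191 to 215) in synovial mesenchyme and 320.3 CPM (302 to 339.8) and 211 CPM (197 to 225) in synovial endothelium. The endothelial difference lay in cluster 2 (334 against 172 CPM), while cluster 13 had 321 CPM in TNF- against 331 CPM in TNF+. In lung epithelium Osmr was 42.1 CPM (35.6 to 49.5) in TNF- and 89.5 CPM (71.7 to 110.4) in TNF+. The lower Osmr of whole TNF+ lung was not found within mesenchyme (94.2 CPM in TNF- against 138 CPM in TNF+) or epithelium, while lung endothelium, which held 58.1% of its TNF- UMIs, had 55.9 CPM in TNF- against 28.8 CPM in TNF+.

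Lifr, the chain for LIF and in part for oncostatin M, was lower in TNF+ synovial myeloid cells, at 51.8 CPM (47.5 to 56.4) in TNF- and 15 CPM (13.2 to 17.0) in TNF+. In lung endothelium it was 267 CPM (258 to 275) and 88.9 CPM (74.6 to 105), a log2 ratio of -1.59 (-1.84 to -1.34). The 2 libraries filled different clusters of it: cluster 2 held 1394 TNF- cells and 4 TNF+ cells, cluster 14 held 20 and 278, with Lifr at 301 CPM (290.1 to 312) in the TNF- cells of cluster 2 and 27.0 CPM (9.92 to 58.8) in the TNF+ cells of cluster 14. Genotype and kind of endothelial cell cannot be told apart here. In cells with at least 1000 UMIs the lung endothelial ratio was -1.46. In synovial mesenchyme Lifr was 113 CPM in TNF- against 62.1 CPM in TNF+, yet within fibroblast cluster 0, its main holder, 199 CPM in TNF- against 198 CPM in TNF+. That cluster was 1276 of 3216 TNF- and 51 of 447 TNF+ mesenchymal cells. Il11ra1, the IL-11 chain, was mainly mesenchymal, at 314 CPM (309 to 319) in TNF- and 231 CPM (218 to 244) in TNF+ synovium and 178 CPM (166 to 192) and 105 CPM (79.6 to 135) in lung. Fibroblast cluster 1 had 485 CPM in TNF- against 555 CPM in TNF+, and the unnamed cluster 6, led by the tendon genes Fmod, Chad and Tnmd, had 481 CPM in TNF- against 492 CPM in TNF+. Its log2 ratio of -1.80 (-1.87 to -1.74) in whole synovium was farther from 0 than the -0.44 (-0.53 to -0.36) of the class that held most of it.

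Lung lymphocytes had 1 of 8 members higher, Lif at 0.436 CPM in TNF- against 0.875 CPM in TNF+ on 9 and 24 UMIs, against 6.06% of all genes, and 0 lower, against 8.36%. Lung endothelium had 0 of 6 higher, against 10.5%, and 1 lower (Lifr), against 8.74%. In lung mesenchyme 1 of 7 was higher (Lif, on 26 and 9 UMIs), against 9.05%, and 1 lower (Il6ra at 114 CPM in TNF- against 42.5 CPM in TNF+), against 9.05%. Counted per cell, the lung mesenchymal Lif ratio was -0.13. In lung myeloid cells 0 of 9 members were higher, against 4.29%, and Il6, Osm and Osmr were lower (3 of 9), against 15.9%, the Osmr values resting on 9 and 21 UMIs and turning to a log2 ratio of 0.35 as a mean over cells.

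A cell that answers a family ligand through its own receptor chains needs gp130 with a partner chain, so both were counted in the same thinned cells. With shed Il6ra, IL-6 can act on cells that have gp130 alone. The pair of Il6st and Il6ra is therefore not the share of cells able to respond to IL-6. In synovial mesenchyme 3.22% (2.64 to 3.90) of TNF- and 4.84% (3.02 to 7.30) of TNF+ cells had UMIs of Il6st and Osmr, and 5.19% (4.45 to 6.02) and 5.07% (3.20 to 7.57) of Il6st and Il11ra1. The pair Il6st and Il6ra was found in 1.06% (0.738 to 1.48) and 0.461% (0.0559 to 1.65) of those cells. In synovial myeloid cells the order was the reverse, with Il6st and Il6ra in 0.965% (0.355 to 2.09) and 0.594% (0.239 to 1.22), and Il6st with Osmr in 0 of 622 and 0 of 1178 cells. Lung endothelium led in Il6st with Lifr, at 5.02% (4.11 to 6.06) in TNF- and 1.89% (0.391 to 5.41) in TNF+. At 1000 UMIs per cell many cells that hold both RNAs lose the UMIs of at least 1 of them, so the shares are low and serve only to compare classes at the same depth.

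Socs3, the STAT3-driven inhibitor of gp130, was lower in TNF+ synovium in mesenchyme, myeloid cells, endothelium and Schwann cells, past 2-fold in the first 2 of them. In mesenchyme it was 734 CPM (726 to 742) in TNF- and 329.7 CPM (315 to 345) in TNF+, a log2 ratio of -1.16 (-1.22 to -1.09), and in myeloid cells 303 CPM (293 to 314) and 116 CPM (111 to 122), a log2 ratio of -1.38 (-1.47 to -1.30). Endothelium had 474 CPM in TNF- against 317 CPM in TNF+ and Schwann cells 454 CPM in TNF- against 343 CPM in TNF+. In dendritic cells it was 302 CPM in TNF- against 54.5 CPM in TNF+. Synovial lymphocytes as a class, at 79.0 CPM in TNF- against 78.8 CPM in TNF+, did not differ beyond counting error. Among them, Socs3 was 2-fold or more lower in TNF+ in B or plasma cells, which were 62 TNF- and 36 TNF+ cells. In T cells it was not past 2-fold. Macrophage cluster 9 had 163 CPM in TNF- against 89.3 CPM in TNF+ and macrophage cluster 21, led by C1qa and Retnla, had 593 CPM in TNF- against 185 CPM in TNF+. Within fibroblast clusters the log2 ratio was nearer 0 than in the class, -0.79 (-1.03 to -0.56) in cluster 0, -0.41 (-0.69 to -0.14) in cluster 3 and -0.56 (-0.73 to -0.40) in cluster 1, and in mural clusters -0.50 (-0.94 to -0.08) and -0.19 (-0.55 to 0.16).

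Immediate-early and heat-shock genes, which tissue dissociation is known to induce, were lower in the same libraries. Of 11 such genes (Fos, Fosb, Jun, Junb, Egr1, Atf3, Ier2, Hspa1a, Hspa1b, Dusp1 and Zfp36), 5 were 2-fold or more lower and 0 higher in TNF+ synovial mesenchyme with a median log2 ratio of -0.78, against -0.26 over all genes. Of all genes, 22% were lower there. In synovial myeloid cells 9 of 11 were lower (median -1.57), against 20% of all genes with a median of -0.14. In endothelium 2 of 11 were lower (median -0.57), against 10.4% and -0.13, and in lymphocytes 9 of 11 (median -1.81), against 12.9% and 0.16. Socs3 in the lymphocyte class stood at 79.0 and 78.8 CPM. In B or plasma cells the median of these genes was -2.07, against 0.23 over all genes, and Socs3 was 2-fold or more lower. In T cells the median was -1.94, against 0.16, and Socs3 was not past 2-fold. In mesenchyme Fos was 3050.1 CPM in TNF- and 632 in TNF+, and Egr1 2858 and 759. The part of dissociation in the Socs3 difference was not tested.

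In lung Socs3 was higher in TNF+, at 47.4 CPM (45.6 to 49.3) in TNF- and 117 CPM (115 to 119.6) in TNF+ whole tissue. Within types, macrophages or monocytes had 93.1 CPM (85.2 to 101) and 193 CPM (189 to 197), a log2 ratio of 1.05 (0.92 to 1.18). Macrophage cluster 1, led by Cd300e and Adgre4, had 107 CPM in TNF- against 236 CPM in TNF+ in 34 and 2533 cells, while 85.3 CPM in TNF- against 249.6 CPM in TNF+ was found in the 250 and 26 cells of cluster 17. Neutrophils had 465 CPM (431 to 500.1) in TNF- and 401 CPM (366 to 438) in TNF+. Lung epithelium had 26.0 CPM in TNF- against 61.7 CPM in TNF+, a log2 ratio of 1.25 (0.75 to 1.73), and mural cells 18.1 CPM in TNF- against 37.3 CPM in TNF+ on 16 and 7 UMIs. In the same epithelial cells the 7 myeloid genes counted had a median log2 ratio of 3.23, against 0.03 over all genes, and their part in the Socs3 value was not tested. B or plasma cells had 16.6 CPM in TNF- against 27.3 CPM in TNF+ and T cells 44.6 CPM in TNF- against 58.0 CPM in TNF+. Socs3 was not among the members past 2-fold in the lung myeloid, lymphocyte, endothelial or mesenchymal class. In lung endothelium Socs3 was lower in TNF+. With class composition held equal the whole-lung log2 ratio of Socs3 was 0.32. Of the 11 immediate-early and heat-shock genes in lung myeloid cells, 5 of 11 were lower, against 15.9% of all genes, with a median log2 ratio of -0.84, against -0.07 over all genes.

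Genes around the family were counted the same way in the classes with most members, beside a median over all genes of -0.26 in synovial mesenchyme, -0.14 in synovial myeloid cells and -0.07 in lung myeloid cells. The share of all genes past 2-fold was 9.56% higher and 22% lower in synovial mesenchyme, 9.31% and 20% in synovial myeloid cells, and 4.29% and 15.9% in lung myeloid cells. Of 14 genes known as STAT3 or gp130 targets, synovial mesenchyme had 7 of 13 higher and 1 lower (median log2 ratio 1.13). Hp and Saa3, both acute-phase genes, stood at 0.147 and 0.210 CPM in TNF- and 2579 and 2626 in TNF+, Timp1, an inhibitor of matrix proteases, at 12.5 and 631, and the protease inhibitor gene Serpina3n at 13 and 189. Saa3, Hp and Timp1 were among the top 10 genes of cluster 15. Several of the 14 genes are also driven by NF-kB, and Junb is on the immediate-early list too. The same list in synovial myeloid cells had 4 of 13 higher and 3 lower (median log2 ratio -0.48), and in lung myeloid cells 1 of 14 higher and 3 lower (median log2 ratio -0.48). In lung mesenchyme it had 5 of 13 higher and 0 lower (median log2 ratio 0.80), against 9.05% and 9.05% of all genes, with the chemokine Ccl2 at 0.991 and 344 CPM and Saa3 at 5.95 and 925. Myeloid genes were higher in the same cells, 7 of 7 with a median log2 ratio of 3.66, and likewise in lung endothelium, 7 of 7 with a median log2 ratio of 3.49. Their part in the values of the TNF+ lung stroma was not tested.

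The JAK-STAT signalling genes named here are among those with the largest absolute ratios in each class. In synovial myeloid cells Stat5a was 55.4 CPM in TNF- and 13.6 in TNF+, Tyk2 35.5 and 9.81, and Jak2 274 and 90.6. In synovial mesenchyme Tyk2 was 9.57 and 3.34 CPM and Jak2 71.3 and 124, and in lung myeloid cells Stat5a was 38.7 and 24.0 CPM and Stat3 459 and 381. Of 4 other negative regulators (Socs1, Socs2, Cish and Pias3) synovial mesenchyme had 0 of 4 higher and 0 lower (median log2 ratio 0.08), synovial myeloid cells 0 of 4 higher and 1 lower (median log2 ratio -0.74) and lung myeloid cells 0 of 4 higher and 3 lower (median log2 ratio -1.33), with Socs1 at 31.7 and 5.82 CPM in the last. In synovial mesenchyme Socs1 stood at 72.7 and 83.8 CPM.

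Among further family genes, Clcf1, a ligand of the CNTF receptor, was 2.37 CPM in TNF- and 12.6 CPM in TNF+ synovial mesenchyme, and Ebi3, a subunit of IL-27, was 8.94 and 33.2 CPM in whole lung. Of 4 genes of receptor shedding, synovial mesenchyme had 1 of 4 higher and 0 lower (median log2 ratio -0.13). That gene was Rhbdf2, which helps the sheddase ADAM17 to mature, at 1.93 and 26.5 CPM. Adam17 itself was 75.9 and 58.9 CPM there, 79.3 and 133 in synovial myeloid cells and 113 and 199 in lung myeloid cells.

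The genes whose pattern over classes was most like that of a member were named by Pearson correlation of log2(CPM + 1) over 24 class and library groups, among 13679 genes with at least 500 UMIs. For Il6 they were Uap1 (r = 0.83), Ifi204 (r = 0.82) and Ifi205 (r = 0.81). For Osm they were Adam8 (r = 0.91), Gm49662 (r = 0.88) and Gm46224 (r = 0.87), for Il6ra Apobr (r = 0.83), Arap1 (r = 0.81) and Slc35c2 (r = 0.80) and for Osmr Adamts1 (r = 0.94), Lamb2 (r = 0.94) and Fzd8 (r = 0.93). Socs3 was closest to Ripk1 (r = 0.95), Ccnl1 (r = 0.90) and Etf1 (r = 0.88). The groups share libraries, depth and cell types, so these values describe the tables and carry no test.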

How the data were processed

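Single-cell RNA sequencing (10x Genomics, 3′ libraries) was performed on live cells from digested lung and synovium, 1 library per genotype and tissue. Per the file headers, the deposited values are counts, whole numbers of UMIs per gene and cell barcode, which the authors made with Cell Ranger 7.0.1 against the mouse reference mm10. That version counts intronic reads by default. The files hold barcodes called as cells only, with 90427403 and 48454234 UMIs in TNF- and TNF+ synovium and 96120328 and 155989523 in lung.

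Following the study's filter, cells were kept that had between 200 and 5000 genes detected and no more than 20% of UMIs from mitochondrial genes. The 2 libraries of a tissue were clustered together without batch correction (scanpy 1.11.5, 10000 UMIs per cell, log1p, 2000 variable genes, 30 components, 20 neighbours, Leiden at 0.8), with the members and pathway genes left out of the variable genes. Clusters were named by markers, with at least 5 detected at 2-fold over the rest (3 for short lists). Doublets were not removed, and removal of the highest Scrublet scores was an alternative. UMIs were summed per class and library and divided by all UMIs. Intervals are exact Poisson (levels), Clopper-Pearson (shares) and conditional binomial (ratios), at 95%. No p-value was computed. Ratios needed at least 20 UMIs over both libraries and called at 2-fold, and 3 UMIs was the floor for a count of 0. Thinning was to 1000 UMIs per cell. The fold calls were checked on simulated counts. All members were named, with up to 4 genes per list by absolute log2 ratio and 3 most alike genes for 5 members, other named genes being cluster leaders or markers. The members, lists and tests were chosen with earlier results of these data known. Median-of-ratios scaling, other cell filters, clusterings, depth limits and minimum counts were alternatives. Some genes of the pathway lists are not reported here, and no counts are given for the JAK-STAT and further family lists.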

Additional observations from a re-analysis of the deposited data

Results flagged for a closer look

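Lung and synovium gave opposite log2 ratios of TNF+ over TNF- for 4 measures, each past 2-fold in both tissues and each on 1 library per group, so the difference between tissues was not tested. Socs3 was -1.54 in whole synovium and 1.31 in whole lung, and within macrophages or monocytes -1.37 and 1.05. The 2 genotypes filled different macrophage clusters in both tissues. Synovial cluster 4 held 7 TNF- and 734 TNF+ cells, lung cluster 1 held 34 and 2533, and lung cluster 3 held 60 and 1013. The part of this in the macrophage ratios of Socs3 was not tested. Il11 was 1.10 in whole synovium and -1.60 in whole lung, the latter on 27 and 14 UMIs. With class composition held equal the Il11 ratios were 2.06 in synovium and -0.20 in lung, the latter no longer past 2-fold, and those of Socs3 -1.10 and 0.32. Lif in lymphocytes was -3.42 in synovium, where most of its TNF- UMIs lay in cluster 16, and 1.01 in lung, on 9 and 24 UMIs. Cluster 16 was 141 of the 332 TNF- and 19 of the 184 TNF+ synovial lymphocytes.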

How the results depend on the processing

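No paired analysis was possible because each group is 1 library. For the same reason no library could be left out. Of 50 member ratios past 2-fold, 734 values were recomputed under the alternatives, of which 724 kept their direction and 682 also stayed past 2-fold. Part of the 734 could not change. The minimum counts only set which genes pass, and clustering does not enter whole-tissue ratios. Leaving out 1 kind of cell does not touch groups without it. These totals therefore do not measure how stable the ratios are. The direction turned in 10 of the 734. Removal of the highest Scrublet scores gave Il6 log2 ratios of 0.0520 in lung myeloid cells and 1.25 in whole lung, and 0.0532 for Il11ra1 in synovial lymphocytes. With the mean over cells of each cell's CPM, the ratio of Il11ra1 in synovial lymphocytes was 0.16, and that of Osmr 0.15 in lung macrophages or monocytes, 0.35 in lung myeloid cells, 0.49 in synovial macrophages or monocytes and 0.35 in synovial myeloid cells. UMIs per cell gave -0.13 for Lif in lung mesenchyme, and leaving out epithelium-named cells -0.0814 for Lif in whole synovium. Counts of members moved as follows. In whole lung 2 were higher with median-of-ratios scaling or without the highest Scrublet scores, and 0 higher and 2 lower with class composition held equal. In whole synovium that weighting gave 1 higher and 1 lower. In lung myeloid cells 2 were higher without a cell filter. In synovial myeloid cells 1 was higher with median-of-ratios scaling, no cell filter, the strict filter, Leiden at 1.6 or each library clustered by itself, and 3 were lower with the mean over cells. In synovial mesenchyme 3 were lower per cell or without a cell filter. The weighting, the limit of 1000 UMIs per cell and the settings without basophil-named or epithelium-named cells were chosen after the data were seen. The cause of these differences was not tested. Depth limits lung Il11 and Lif and the TNF+ lung stroma.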
